A study of Homo sapiens with 6 samples.

Results

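Small nucleolar RNAs (snoRNAs) are short RNAs that guide the chemical modification of ribosomal and other RNAs. Box C/D snoRNAs guide ribose methylation and box H/ACA snoRNAs guide the change of uridine to pseudouridine. In human cells most of them are cut out of introns of longer host transcripts, and some hosts code for no protein. The spliced RNAs of these noncoding hosts can be bound by ribosomes and degraded by nonsense-mediated decay (NMD), the pathway that removes RNAs with early stop codons, so their level can depend on translation as well as on transcription. Many begin with a run of pyrimidines, as do the mRNAs of ribosomal proteins.

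The genes described here are 9 such noncoding hosts, GAS5, SNHG1, SNHG3, SNHG5, SNHG6, SNHG7, SNHG8, SNHG12 and ZFAS1, chosen by name, and they are 9 of 24551 genes in the expression tables. Levels were measured by RNA-Seq in DU145, a prostate carcinoma cell line from a brain metastasis, and 769-P, a renal cell adenocarcinoma cell line. Each line was transfected with a control siRNA (NC) or with 1 of 2 siRNAs against SPOP, the substrate adaptor of a cullin 3 ubiquitin ligase, which gave 6 libraries of oligo-dT selected RNA. The comparison asked how loss of SPOP changed gene expression in each line. Every group holds cells of an established line, and each siRNA and each control had 1 library. The 2 SPOP siRNA libraries of a line therefore stand in as its replicates, although they come from different reagents, and the control has none. The siRNA libraries of a line share its single control, and p-values measure only the spread between these libraries, which may be technical.

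SPOP, the targeted gene, was at 16.1 FPKM (a fragment count divided by transcript length and by library size) in the DU145 control and at 2.77 and 2.96 FPKM with siRNA 1 and siRNA 2. In 769-P it was at 11.6 FPKM in the control and at 1.53 and 1.39 FPKM. At most 18.4% of the control level was left, but even this change had an adjusted p of 0.134 in DU145 and 0.0948 in 769-P (limma), so an adjusted p that missed 0.05 says little about smaller changes here. The renal marker PAX8 was high in 769-P (106 to 125 FPKM), while CA9 and NDUFA4L2 were listed at 0 there. In DU145 the prostate markers KLK3, KLK2 and HOXB13 were at or below 0.312 FPKM and TMPRSS2 was listed at 0, while the epithelial keratins KRT8 and KRT18 were high. The DU145 control and the 769-P siRNA 2 library stood apart, since 301 and 250 of 384 olfactory receptor genes were above 0 in them against 4 to 6 in the other 4 libraries. The mean level of those genes was 0.345 and 0.227 FPKM, far below the level of any of the 9 hosts.

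By the snoRNAs they carry, GAS5, SNHG1, SNHG5, SNHG6 and ZFAS1 host box C/D snoRNAs. SNHG3, SNHG7 and SNHG8 host box H/ACA snoRNAs, and SNHG12 hosts both kinds. In the GENCODE annotation of GRCh37, the build to which the reads were mapped (hg19), GAS5 lies on the minus strand at chr1:173827697-173838020, SNHG1 on the minus strand at chr11:62619450-62623425 and SNHG5 on the minus strand at chr6:86360209-86388650. ZFAS1 lies on the plus strand at chr20:47894715-47916137. SNHG3 lies on the plus strand at chr1:28832492-28837404, SNHG7 on the minus strand at chr9:139615818-139622636, SNHG8 on the plus strand at chr4:119199858-119206471 and SNHG12 on the minus strand at chr1:28905050-28909644. The deposited table gives SNHG3 in 1 row with the protein-coding gene RCC1, which overlaps it on the same strand, so its values are those of both. SNHG7 shares a row with its own SNORA17 and SNORA43.

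The sequences printed here are examples of the box C/D snoRNAs that these genes carry in their introns. ZFAS1 holds 3 copies of 1 family, SNORD12C (chr20:47895477-47895565), SNORD12B (chr20:47896856-47896946) and SNORD12 (chr20:47897220-47897309), all intronic on the plus strand, and GAS5 holds SNORD78 in an intron on the minus strand (chr1:173834760-173834824, GRCh37). Capitals mark TGATG, the core of the C box, near the 5′ end and CTGA, the D box, near the 3′ end, read on the strand of the gene.
SNORD12C: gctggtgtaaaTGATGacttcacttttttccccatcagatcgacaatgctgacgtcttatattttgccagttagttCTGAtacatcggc
SNORD12B: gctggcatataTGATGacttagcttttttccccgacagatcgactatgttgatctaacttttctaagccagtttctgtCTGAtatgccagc
SNORD12: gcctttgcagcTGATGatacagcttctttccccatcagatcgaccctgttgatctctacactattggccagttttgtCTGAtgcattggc
SNORD78: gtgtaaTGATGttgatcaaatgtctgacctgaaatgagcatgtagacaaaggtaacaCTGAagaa
In all 3 members of the SNORD12 family the C box core starts at base 12, and in SNORD78 it starts at base 7. SNORD99, in an intron of SNHG12 and not printed, had CTGA at base 63 but no TGATG within its first 20 bases. SNORA73B, a box H/ACA snoRNA in an intron of SNHG3, is not printed either. Of the 37 annotated SNORD genes on chromosomes 1 and 20, 70.3% had TGATG within the first 20 bases and 81.1% had CTGA within the last 20 bases.

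The bases around the start of transcription are shown because many transcripts of this kind begin with a pyrimidine run. RefSeq sequence (GRCh38.p14) was matched for 8 of the 9 hosts and is shown from 40 bases before the start to the first 20 bases of the transcript. For each gene 1 start was taken, and other annotated starts were not searched. Capitals mark TATA, where all of it lay 40 to 16 bases before the start. They also mark the longest run of C and T between 10 bases before the start and base 20 of the transcript. The regions are chr1:173869026-173869085 for GAS5, chr11:62855866-62855925 for SNHG1, chr6:85678714-85678773 for SNHG5, chr9:136728165-136728224 for SNHG7 and chr1:28581854-28581913 for SNHG12, all on the minus strand. On the plus strand are chr1:28505903-28505962 for SNHG3, chr4:118278722-118278781 for SNHG8 and chr20:49278602-49278661 for ZFAS1.
GAS5: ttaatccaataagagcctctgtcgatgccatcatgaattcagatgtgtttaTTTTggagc
SNHG1: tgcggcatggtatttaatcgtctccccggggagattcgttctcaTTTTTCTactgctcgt
SNHG5: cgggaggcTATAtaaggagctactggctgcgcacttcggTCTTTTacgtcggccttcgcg
ZFAS1: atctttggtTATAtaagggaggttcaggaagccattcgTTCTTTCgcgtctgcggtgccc
SNHG3: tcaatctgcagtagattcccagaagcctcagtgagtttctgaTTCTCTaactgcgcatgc
SNHG7: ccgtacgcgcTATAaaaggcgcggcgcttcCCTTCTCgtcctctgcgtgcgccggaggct
SNHG8: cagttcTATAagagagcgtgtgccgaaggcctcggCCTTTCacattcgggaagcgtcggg
SNHG12: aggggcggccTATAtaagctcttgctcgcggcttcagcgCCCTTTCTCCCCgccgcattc
A pyrimidine run of 6 or more was found in 7 of these 8 windows, against 30.1% of 27305 RefSeq promoters. In GAS5 the longest run was 4 at the start taken. The run of 12 in SNHG12 was matched or exceeded in 2.46% of all promoters. Not every run lay at the start, and that of SNHG7 lay wholly before it. The runs began at base -5 in SNHG8, -2 in ZFAS1 and -1 in SNHG5 and SNHG12. The marked run of SNHG7 began at base -10, where the search began, and C and T continue before it in the printed sequence. Negative numbers stand for bases before the start. In SNHG3 the run began at base 3, in SNHG1 at base 5 and in GAS5 at base 12. TATA was found in 5 of the 8, SNHG5, SNHG7, SNHG8, SNHG12 and ZFAS1, where its first base lay 30 to 34 bases before the start, against 6.52% of all promoters, both motifs being read on the strand of the gene. Of 11 other noncoding hosts 7 had a run of 6 or more and 1 had TATA. Of 42 genes listed as protein-coding hosts 20 had such a run and 8 had TATA. These letters are a description of the sequence, and no factor was measured at them.

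The 9 hosts were among the more abundant transcripts of both lines. SNHG6, the host of SNORD87, was the highest in each, at 217 ± 16.1 FPKM in DU145 and 170 ± 22.8 FPKM in 769-P (mean ± SD of the 3 libraries of a line, n = 3, which holds the spread of the treatments as well). It stood between the 96.6 and the 98.1 percentile of the genes tested in every library. SNHG12 was the lowest in both, at 17.3 ± 1.45 and 33.2 ± 1.54 FPKM, and its percentile ran from 61.7 to 82.3. In DU145 the order by mean was SNHG6, SNHG7, SNHG5, ZFAS1, GAS5, SNHG1, SNHG3, SNHG8 and SNHG12, and the neighbours SNHG7 and SNHG5, SNHG5 and ZFAS1, and ZFAS1 and GAS5 overlapped in their library values. In 769-P it was SNHG6, SNHG7, GAS5, SNHG5, ZFAS1, SNHG8, SNHG1, SNHG3 and SNHG12, and each neighbouring pair from GAS5 down to SNHG1 overlapped. FPKM is a level per transcript length, so these orders compare genes on that scale. The place of SNHG3 includes RCC1, and that of SNHG7 includes SNORA17 and SNORA43.

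**Figure D1:**
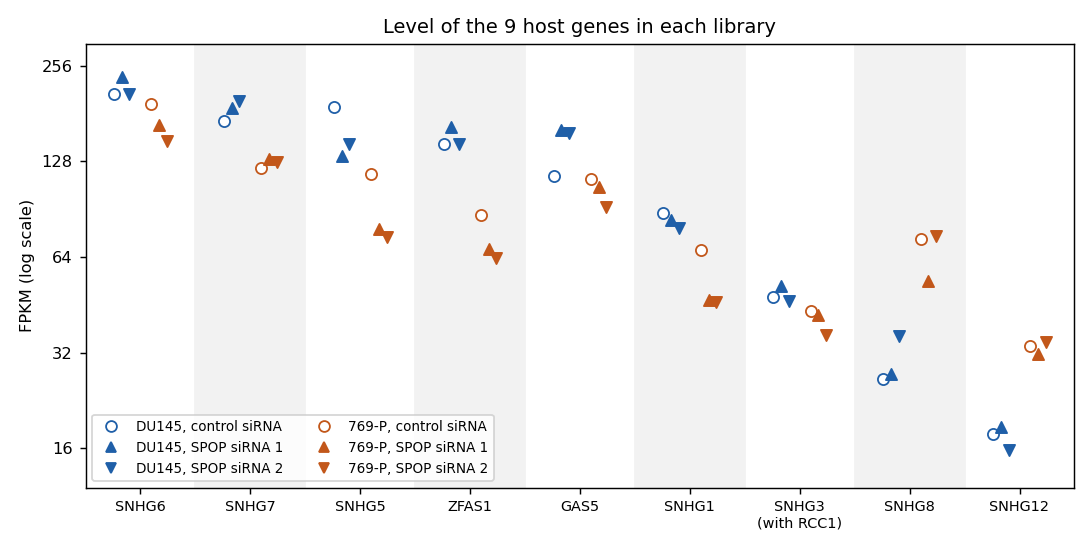
FPKM (log scale) of the 9 host genes in each of the 6 libraries, DU145 in blue and 769-P in orange, with an open circle for the control, an upward triangle for SPOP siRNA 1 and a downward triangle for SPOP siRNA 2. For every gene the 3 values of one line lie apart from those of the other, SNHG8 and SNHG12 being higher in 769-P and the other 7 higher in DU145.

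In each of the 9 hosts the libraries of the lines did not overlap, and the direction was not shared. In 7 of the 9 all 3 DU145 libraries were above all 3 769-P libraries, which held for 35.1% of the 11865 genes tested, and in 2, SNHG8 and SNHG12, all 3 were below, which held for 21.2%. No overlap in either direction was seen for 56.3% of all genes. In limma on log2(FPKM + 1), 7 of the 9 passed an adjusted p of 0.05, 5 higher and 2 lower in DU145, where 45.5% of all genes passed, 29.4% as higher and 16.1% as lower. An exact permutation test of 3 against 3 libraries gave a two-sided p of 0.1 for each gene, the smallest that it can give. The 3 libraries of a line hold 1 control and 2 knockdowns, so this difference is one between lines over both treatments. The median of all genes tested was itself 0.16 higher in DU145 on the log2 scale. With each library centred on its median 5 of the 9 passed, where 5705 of the 11865 genes did. They were SNHG1, SNHG5 and ZFAS1 as higher and SNHG8 and SNHG12 as lower in DU145, and none of the 9 turned its direction.

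Among the box C/D hosts the widest difference was in ZFAS1, named as antisense to the promoter region of ZNFX1. It was at 145, 164 and 145 FPKM in the DU145 control, siRNA 1 and siRNA 2 libraries and at 86.7, 68.0 and 63.7 FPKM in those of 769-P. The lowest DU145 value was well above the highest 769-P value, and the log2 difference was 1.06 (SE 0.14, adjusted p 0.00262, limma). SNHG5, the host of the U50 snoRNAs, was at 191, 133 and 145 FPKM in DU145 and at 117, 78.6 and 74.1 FPKM in 769-P. The DU145 siRNA libraries came nearest to the 769-P control, and the log2 difference was 0.81 (SE 0.13, adjusted p 0.0059, limma). SNHG1, a host with many box C/D snoRNAs in its introns, was at 87.8, 83.4 and 79.0 FPKM in DU145 and at 67.4, 46.8 and 46.1 FPKM in 769-P. Its log2 difference was 0.65 (SE 0.13, adjusted p 0.0114, limma), with the 769-P siRNA libraries lowest.

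GAS5, first found as a transcript that builds up in growth-arrested cells, was at 115, 161 and 157 FPKM in DU145 and at 113, 106 and 91.9 FPKM in 769-P. The 2 controls were almost level, and the separation of the lines lay in the siRNA libraries. Over all 6 libraries the log2 difference was 0.47 (SE 0.14, adjusted p 0.0391, limma), while between the controls alone it was 0.03 (SE 0.24). SNHG6 was at 208, 236 and 208 FPKM in DU145 and at 194, 167 and 149 FPKM in 769-P. Its log2 difference of 0.36 (SE 0.14) had an adjusted p of 0.0876 (limma) and did not pass.

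Among the hosts of box H/ACA snoRNAs the direction was mixed. The row of SNHG7 with SNORA17 and SNORA43 was at 171, 188 and 199 FPKM in DU145 and at 122, 130 and 127 FPKM in 769-P. It was higher in DU145 by a log2 difference of 0.55 (SE 0.13, adjusted p 0.0190, limma). SNHG8, the host of SNORA24, was at 26.5, 27.4 and 36.02 FPKM in DU145 and at 72.7, 53.6 and 74.4 FPKM in 769-P. It was lower in DU145 by the widest margin of the 9, a log2 difference of -1.13 (SE 0.20, adjusted p 0.00762, limma), although the siRNA libraries of each line also differed among themselves. The row of SNHG3 and RCC1, a regulator of the GTPase Ran, was at 47.8, 51.7 and 46.4 FPKM in DU145 and at 43.2, 42.1 and 36.3 FPKM in 769-P. The values did not overlap, but the log2 difference of 0.26 (SE 0.15) had an adjusted p of 0.203 (limma).

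SNHG12, which hosts SNORA44, SNORA61, SNORA16A and SNORD99, was at 17.7, 18.6 and 15.7 FPKM in DU145 and at 33.5, 31.6 and 34.6 FPKM in 769-P. It was lower in DU145 by a log2 difference of -0.90 (SE 0.15, adjusted p 0.00657, limma). The knockdown libraries of a line stayed near its control. Without the 2 libraries that stood apart, 4 of the 9 passed, namely SNHG7, SNHG8, SNHG12 and ZFAS1, and with the controls alone 1 passed, SNHG8, on the spread of the siRNA groups. With the siRNA libraries alone the 7 that passed were those named above. Of all genes tested, 5395 passed over all 6 libraries, 3734 without the libraries that stood apart and 4424 with the siRNA libraries alone. In every comparison of this paragraph with fewer libraries, fewer of all genes passed too, so the lower counts are not particular to the hosts. Without the 769-P siRNA 1 library 3 passed, and without the 769-P siRNA 2 library 1 passed, ZFAS1.

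**Figure D2:**
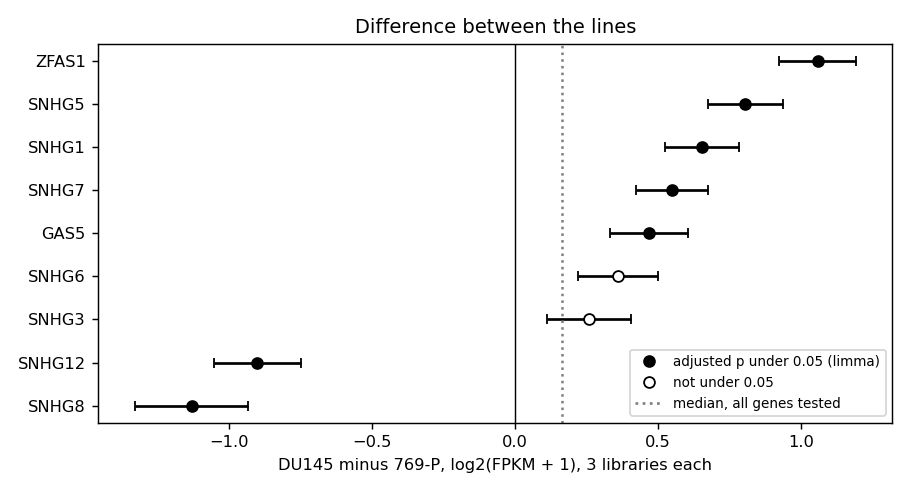
Difference of DU145 minus 769-P in log2(FPKM + 1) for each host gene over 3 libraries of each line, with bars of 1 standard error from limma, filled where the adjusted p was under 0.05. SNHG8 (-1.13) and SNHG12 (-0.90) lie to the left of 0 and the other 7 to the right, with ZFAS1 farthest (1.06), and the dotted line is the median of all genes tested (0.16).

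Some hosts overlap genes on the other strand, and the kit is not stated to keep strand, so reads from both could not be told apart. ZNFX1 was at 12.2 to 19.97 FPKM over the 6 libraries, below each value of its antisense partner ZFAS1. TRNAU1AP, which overlaps SNHG12, was at 4.03 to 11.2 FPKM against 15.7 to 34.6 FPKM for SNHG12. SLC3A2, an amino acid transporter subunit that begins 51 bases from SNHG1 on the other strand, was at 184 to 250 FPKM in DU145 and at 98.1 to 110 FPKM in 769-P, and like SNHG1 it was higher in DU145.

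With knockdown of SPOP none of the 9 hosts changed by 1.5-fold with both siRNAs in either line. That call was made for 5.91% of all genes tested in DU145 (4.72% up and 1.19% down) and for 7.32% in 769-P (3.6% up and 3.73% down). In limma 0 of the 9 passed an adjusted p of 0.05 in either line, as 0.135% and 0.101% of all genes did. At an unadjusted p under 0.05, 0 of the 9 passed in DU145 and 2, SNHG1 and SNHG5, in 769-P, where 6.27% and 6.97% of all genes did. Fold changes are given on the log2(FPKM + 1) scale. In none of the 9 hosts did the siRNA 1 and siRNA 2 libraries of a line differ by 1.5-fold, against 17.6% of all genes in DU145 and 11.9% in 769-P.

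In 769-P most of the hosts lay somewhat below their control. With both siRNAs 6 of the 9 were below it, GAS5, SNHG1, SNHG3, SNHG5, SNHG6 and ZFAS1, which held for 39.5% of all genes, and 1, SNHG7, was above it, which held for 31.5%. All 5 box C/D hosts were among the 6. The median change of the 9 was -0.20 on the log2 scale, where that of all genes tested was -0.03. In DU145, 2 hosts were below the control with both siRNAs (SNHG1 and SNHG5, against 22.2% of all genes) and 3 above it (GAS5, SNHG7 and SNHG8, against 43.5%). The median there was 0.09, as was that of all genes. With each library centred on the median of all genes, the median of the 9 hosts was -0.04 in DU145 and -0.12 in 769-P. Summed over the rows of the 9 hosts, RCC1 included, the level was 1010, 1064 and 1031 FPKM in the DU145 control, siRNA 1 and siRNA 2 libraries. This was 0.254%, 0.260% and 0.230% of all FPKM in those libraries. In 769-P the sum was 849 FPKM in the control and 724 and 697 FPKM with the siRNAs, or 0.199%, 0.163% and 0.171% of all FPKM. Over the 7 hosts with a row of 1 symbol, the DU145 sums were 792, 824 and 786 FPKM. In 769-P they were 683, 552 and 533 FPKM, in the same order of libraries. Since a line has 1 control library, the error of the control is not known for any of these changes.

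**Figure D3:**
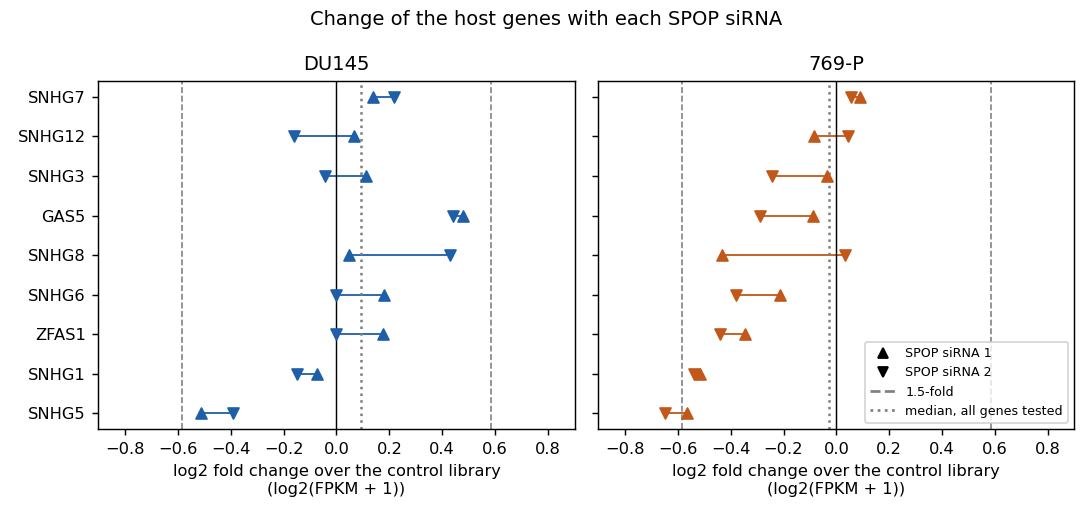
Log2 fold change of each host gene over the control library of its line on the log2(FPKM + 1) scale, with SPOP siRNA 1 as upward and siRNA 2 as downward triangles, DU145 on the left and 769-P on the right. Dashed lines mark 1.5-fold and the dotted line the median of all genes tested (0.09 and -0.03), and only SNHG5 with siRNA 2 in 769-P (-0.65) lies past a dashed line.

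SNHG5 had the largest change in 769-P and was lower than the control in all 4 siRNA libraries. It was at 70.0% and 76.0% of the control in DU145 and at 67.4% and 63.5% in 769-P, with siRNA 1 and siRNA 2. The log2 changes were -0.51 and -0.39 in DU145 and -0.56 and -0.65 in 769-P, so that in 769-P siRNA 2 was just past 1.5-fold and siRNA 1 just short of it. The mean of -0.61 in 769-P (SE 0.20) had an unadjusted p of 0.0251 and an adjusted p of 0.693, and the mean of -0.45 in DU145 (SE 0.20) an adjusted p of 0.801 (limma). After quantile normalization SNHG5 passed the 1.5-fold call in both lines. SNHG5 was highest in the DU145 control within its line and lowest in the siRNA 2 library within 769-P, which are the 2 libraries that stood apart, and their part in the change was not tested.

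SNHG1 was the other host below the control in all 4 siRNA libraries, which held for 13.6% of all genes. It was at 95.0% and 90.0% of the control in DU145 and at 69.5% and 68.5% in 769-P. The 769-P libraries of both siRNAs were close to each other and well under the control, with a mean log2 change of -0.53 (SE 0.20, unadjusted p 0.0398, adjusted p 0.708, limma). ZFAS1 was at 78.4% and 73.4% of the control in 769-P and SNHG6 at 86.2% and 76.7%. In DU145 both hosts were slightly above the control with siRNA 1, at 113% each, and level with it with siRNA 2.

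GAS5 moved to opposite sides of the control in the 2 lines. It was at 140% and 136% of the control with siRNA 1 and siRNA 2 in DU145 and at 94.1% and 81.6% in 769-P, a pattern of above in DU145 and below in 769-P that 10.4% of all genes had. The mean log2 change was 0.46 (SE 0.20, adjusted p 0.801, limma) in DU145 and -0.19 (SE 0.20, adjusted p 0.845, limma) in 769-P. The difference of these changes was 0.65 (SE 0.29, unadjusted p 0.0710, adjusted p 0.999, limma). None of the 9 hosts passed the test of this difference, which 0.169% of all genes passed, and at an unadjusted p under 0.05 again none did, against 2.74% of all genes.

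Among the hosts of box H/ACA snoRNAs, the row of SNHG7 with SNORA17 and SNORA43 was above the control in all 4 siRNA libraries. This held for 20.1% of all genes. The row was at 110% and 116% in DU145 and at 106% and 104% in 769-P. The row of SNHG3 and RCC1 was at 108% and 97.0% in DU145 and at 97.5% and 84.0% in 769-P. SNHG8 differed between the siRNAs, at 103% and 136% of the control in DU145 and at 73.8% and 102% in 769-P. SNHG12 lay on either side of the control in both lines, between 89.0% and 105%.

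The snoRNAs themselves were mostly not seen in these libraries. Mature snoRNAs carry no poly(A) tail, and the libraries were made from oligo-dT selected RNA. The part of this selection in the missing values was not tested. Of 35 snoRNA symbols listed for the 9 hosts, 29 had a row of their own, 2 shared the row of SNHG7 and 4 had no row. Of the 29, 22 were listed at 0 in all 6 libraries, and 9 of the 174 values were above 0. SNORD22, from SNHG1, was above 0 in 3 libraries, at 35.5 FPKM in the DU145 control, 30.9 FPKM in DU145 siRNA 2 and 31.5 FPKM in 769-P siRNA 1. The other 6 were above 0 in 1 library each, among them SNORD80 of GAS5 at 438 FPKM and SNORD12 of ZFAS1, whose sequence is shown above, at 170 FPKM, both in DU145 siRNA 2. FPKM divides by length, so few fragments give a high value in so short a gene, and no change of a snoRNA was read from these entries.

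Related genes were described by the same rules. Of 10 other noncoding hosts that could be tested, of 12 with a row, 0 were called in DU145 and 1 was called up in 769-P. That gene was SNHG10, at 1.99 FPKM in the control and 3.77 and 4.42 FPKM with the siRNAs. Their median change was 0.29 in DU145 and -0.04 in 769-P on the log2 scale. SNHG4 is among them only in a row shared with MATR3, and SNHG20 in a row with SEC14L1. Of 56 genes tested from a list of protein-coding hosts, 0 were called in either line. They were mostly ribosomal protein and translation factor genes, but the pseudogene CCT6P1 is among them. Their median was -0.03 in DU145 and -0.18 in 769-P, close to the -0.20 of the 9 hosts there. Between the lines 5 of the 56 were higher and 15 lower in DU145, and of the 10 other noncoding hosts 5 were higher and 0 lower (limma, adjusted p), where 29.4% of all genes were higher and 16.1% lower.

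Of 17 proteins and assembly factors of the snoRNA particles, 1 was called up in each line, which is near the share of all genes called up (4.72% in DU145 and 3.6% in 769-P). It was NOLC1, a nucleolar chaperone of snoRNA particles, at 33.9, 54.9 and 79.3 FPKM in the DU145 control, siRNA 1 and siRNA 2 libraries and at 35.0, 66.5 and 71.8 FPKM in those of 769-P. All 4 siRNA libraries were above both controls, and the mean log2 change was 0.94 (SE 0.28, adjusted p 0.769, limma) in DU145 and 0.96 (SE 0.28, adjusted p 0.693, limma) in 769-P. Of 17 NMD factors 0 were called in either line. Of 20 transcripts known as NMD targets 0 were called in DU145 and 1 was called down in 769-P, the sterol synthesis gene SC5D, at 2.67 FPKM in the control and 1.24 and 1.37 FPKM with the siRNAs. The NMD lists share genes, among them SMG1, SMG5, UPF1 and UPF2. NOP56 and DKC1 are in the list of snoRNA particle proteins and in that of protein-coding hosts. The medians of the NMD targets were -0.13 in DU145 and -0.24 in 769-P, and no gene of any of these lists passed limma (adjusted p under 0.05) for knockdown in either line.

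**Figure D4:**
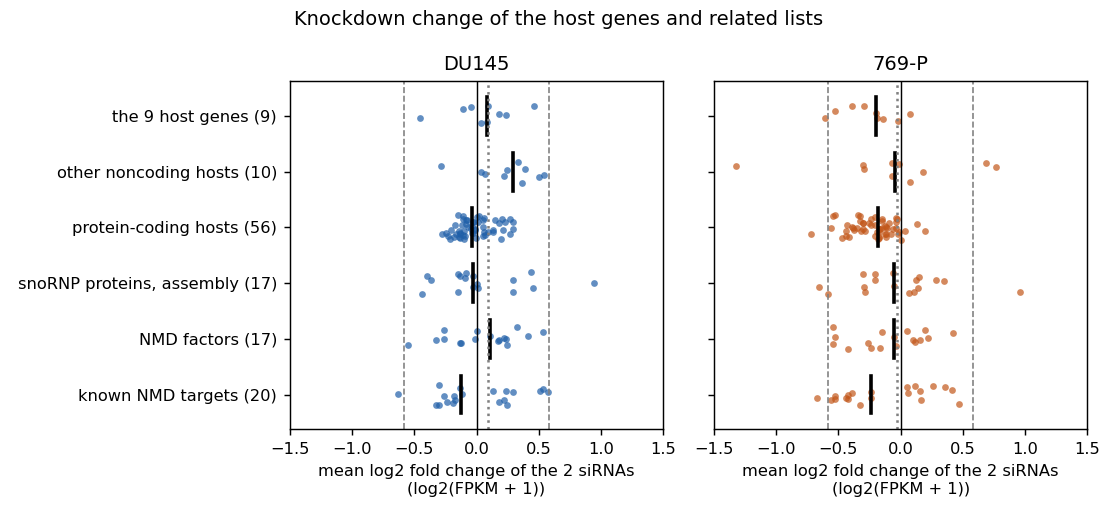
Mean log2 fold change of the 2 SPOP siRNAs on the log2(FPKM + 1) scale for the 9 host genes and for each related list (number of genes tested in brackets), 1 point per gene, with DU145 on the left and 769-P on the right. Black bars are medians, dashed lines mark 1.5-fold and the dotted line is the median of all genes tested. The bar of the 9 hosts is at 0.09 in DU145 and at -0.20 in 769-P, and the point farthest right in the row of snoRNA particle proteins is NOLC1 (0.94 in DU145 and 0.96 in 769-P).

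The 5 genes whose pattern over the 6 libraries was most like the mean of the 9 hosts, after the mean of each line was subtracted from the log2 values, were USP38 (Pearson's r 0.995), KIF18A (0.994), GNB5 (0.993), AIM1 (0.992) and DGCR8 (0.990), the last in a row shared with MIR1306 and MIR3618. They were taken from 11865 genes over 6 libraries that share their controls, and the values describe these libraries only. KIF18A, a mitotic kinesin, was at 4.197, 4.68 and 4.28 FPKM in DU145 and at 4.92, 3.16 and 3.12 FPKM in 769-P. Like the mean of the hosts, it was lower with both siRNAs in 769-P and near its control in DU145.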

How the data were processed

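RNA-Seq was run on 6 libraries, 1 for each siRNA or control in each line. The authors trimmed and checked reads with cutadapt and FastQC, aligned them with TopHat2 (hg19), and deposited the FPKM of Cufflinks in 26006 rows per library. Tool versions and the annotation are not given in the sources used here. The labels name 1 library per siRNA, while the methods of the study mention biological replicates, and library kits differ between these sources. FPKM holds no counts, so depth and the counting error of single values are unknown. The most frequent ratio of low values put the other libraries at 0.681 to 1.41 of the depth of the 769-P control.

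Rows of 1 symbol were summed, giving 24551 genes, and a gene was found where any comma-separated part of its row's symbol matched. A pseudocount of 1 was added before log2, and tests covered the 11865 genes whose mean over the libraries reached 1 FPKM. All 9 hosts passed this filter, each with at least 15.7 FPKM in every library. A knockdown call needed both siRNAs to pass 1.5-fold in 1 direction. limma 3.58.1 (R 4.3.3) was fitted on all 6 libraries in 4 groups, with eBayes and a trend, and p-values were adjusted over all genes tested (Benjamini-Hochberg). Scripts were tested on simulated data. Python 3.11.15 and pandas 2.3.3 were used for the tables. Motifs were counted in RefSeq promoters, and snoRNA sequences were read from the GRCh37 genome.

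The hosts and the related lists were chosen with earlier results of these data known. Named genes are the 9 hosts, SPOP, the snoRNAs of the hosts, the genes called in a related list (at most 4 per list), and the 5 genes most correlated with the mean profile of the hosts. Genes overlapping or beside a host are named where their levels bear on it. Results for some marker and neighbouring genes are not reported here. Alternatives were other pseudocounts, filters, fold limits, centring, quantile normalization, subtraction of the mean of the olfactory receptor genes, rows with 1 symbol only, limma without a trend or with a replicate block, and leaving out each siRNA library. The 3 line comparisons with the control libraries only, the siRNA libraries only and without the libraries that stood apart were added after the data were seen.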

Additional observations from a re-analysis of the deposited data

Results flagged for a closer look

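GAS5 was above its control with both SPOP siRNAs in DU145 and below it with both in 769-P, and the difference of its log2 changes between the lines was 0.65. In limma this difference had an unadjusted p of 0.0710 and an adjusted p of 0.999, so the test of the difference itself did not pass. Both siRNAs of a line share 1 control library, the 2 controls were almost level at 115 and 113 FPKM, and the DU145 control is 1 of the libraries that stood apart.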

How the results depend on the processing

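The limits are 1 control library per line, siRNA libraries as the only replicates, and values without counts, so that no counting error is known. The median change of the hosts was -0.038 in DU145 and -0.12 in 769-P with each library centred on its median, and -0.30 in 769-P over the 7 hosts with a row of 1 symbol. SNHG5 was the 1 host called down in DU145 and the 1 called down in 769-P after quantile normalization. It was also the 1 host called in 769-P when the mean of the siRNAs, or either siRNA, had to pass 1.5-fold. Of the 11865 genes tested, 1668 were called there by the mean and 3200 by either siRNA. The number of hosts differing between the lines was 4 without the libraries that stood apart and 1 with the controls only, both chosen after seeing the data. Leaving out 1 siRNA library at a time, it ranged from 1 to 5. The median change then ranged from -0.0020 to 0.11 in DU145 and from -0.29 to -0.21 in 769-P, and the hosts called ranged from 0 to 1 in 769-P (SNHG5). In the line comparisons with fewer libraries, fewer of all genes passed too. The cause of these shifts was not tested, except that fewer libraries entered the fits that left some out. GAS5 passed the line difference with an adjusted p of 0.0391, and over the alternatives that missed it the adjusted p ran from 0.0582 (no trend) to 0.940 (controls only). No host reversed its called direction under any alternative. The replicate block, a term for the siRNA number shared by the lines, left 7 hosts differing between the lines and 0 called for knockdown by limma. The lines share only the siRNA numbers, and the labels name no shared day or batch. The differences of siRNA 2 minus siRNA 1 correlated between the lines across 11865 genes with Pearson's r 0.27 and Spearman's rho 0.36, and genes are not independent replicates.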
